A study of Mus musculus with 11 samples.

Results

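The Nxpe genes encode neurexophilin and PC-esterase domain proteins. The family was taken as every gene in the deposited table whose symbol starts with Nxpe, which gave 4 of 22243 genes (Nxpe2, Nxpe3, Nxpe4 and Nxpe5) and 6 of 28808 transcripts. Polyadenylated RNA was sequenced from the whole wall of the distal colon in 6 wild-type animals (WT) and 5 Nrg4-/- animals (KO). The product of Nrg4, neuregulin-4, binds the receptor ErbB4. All were adults of 11 to 12 weeks that had lived in mixed-genotype cages since 9 weeks, and males and females were used. Cage A held 4 mice, cage B 4 and cage C 3, with KO-3 as the single KO mouse of cage C. The sources used here do not give the strain, the way the knockout allele was made or the sex of each mouse. Levels are in TPM, a unit that corrects for transcript length and so allows genes to be compared. In none of the 11 mice was Nrg4 itself (chromosome 9, 55220222 to 55326844, mm10) listed above 0 TPM, so its level gave no check of the genotype labels.

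Proteins of this family join a neurexophilin-like region to a PC-esterase region. The PC-esterase fold is shared with Casd1, the enzyme that adds O-acetyl groups to sialic acid, and the human relative NXPE1 has been linked to O-acetylation of the sialic acids that cap colonic mucin glycans. The roles of the mouse proteins Nxpe2 to Nxpe5 are less well described. The mouse Nxpe1 locus is annotated as a pseudogene, Nxpe1-ps, and is not among the 4 genes.

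The family was chosen by its KO and WT values, because Nxpe4 was among the genes with the largest difference in these mice. The KO and WT values of the members are therefore given as a description, with no test of that difference. Of the 4 genes, Nxpe2 and Nxpe4 reached 1 TPM in at least 5 mice and entered the fit across genes. Nxpe4 met that filter through its WT mice alone. Nxpe3 and Nxpe5 reached 1 TPM in 0 mice.

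Nxpe4 and Nxpe2 lie on chromosome 9 (mm10; gene spans from GENCODE M21). Nxpe4 spans 48162023 to 48400025 on the plus strand, and Nxpe2 spans 48318006 to 48353454 on the minus strand, inside the span of Nxpe4. Nxpe5 lies on chromosome 5 (138225898 to 138253363, plus strand) and Nxpe3 on chromosome 16 (55839953 to 55895285, minus strand). In the coding sequence, Nxpe4 and Nxpe2 were 68.8% identical over aligned bases, and the other 5 pairs were 55.5% to 58.8% identical. Nxpe4 lies 6.8 Mb from Nrg4.

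The table lists 2 Nxpe4 transcripts. Nxpe4-201 starts at 48362041 and has 9 exons, while Nxpe4-202 starts at 48162115, 199.9 kb upstream, and has 11 exons. Both have the same coding part, with 1629 coding bases (543 codons), and they share 2541 exonic bases, which is 80.1% of Nxpe4-201 and 88.4% of Nxpe4-202. A total of 632 exonic bases belong to Nxpe4-201 alone, in its first exon and at its 3′ end, and 334 belong to Nxpe4-202 alone, in its first 3 exons. The 30-base junctions at which the leaders of the 2 transcripts join the first shared exon (position 48375873) show where reads can tell them apart. Capitals mark the 15 bases of each transcript's own exon and lower case the 15 shared bases (GENCODE M21 transcripts).
Nxpe4-201: GCTAGCAGCACTCGGatgagaaaacctgac
Nxpe4-202: CTAGCCTTGTCCCAGatgagaaaacctgac

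The main transcripts of Nxpe2 and Nxpe4 share no run of bases as long as the 75-nt reads. The transcripts Nxpe4-201 and Nxpe2-201 have 26 overlapping stretches of 31 bases in common, 0.827% of those in Nxpe4-201. These were counted at every start position, and 21 of the 26 fall in the longest run. That run is 51 coding bases, in exon 6 of Nxpe4-201 (chr9:48393140-48393190, plus strand) and exon 3 of Nxpe2-201 (chr9:48326342-48326392, minus strand). It is shown as the longest run common to both genes, and a 75-nt read that covers it extends beyond it.
Nxpe4 and Nxpe2: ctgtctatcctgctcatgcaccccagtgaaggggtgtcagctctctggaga
Counted in the same way, Nxpe4-201 also shares 89 stretches of 31 bases (2.83%) with the transcripts of Nxpe1-ps. The exons of Nxpe2-201 overlap 0 exonic bases of either Nxpe4 transcript, since Nxpe2 lies in an intron of Nxpe4-202.

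**Figure D1:**
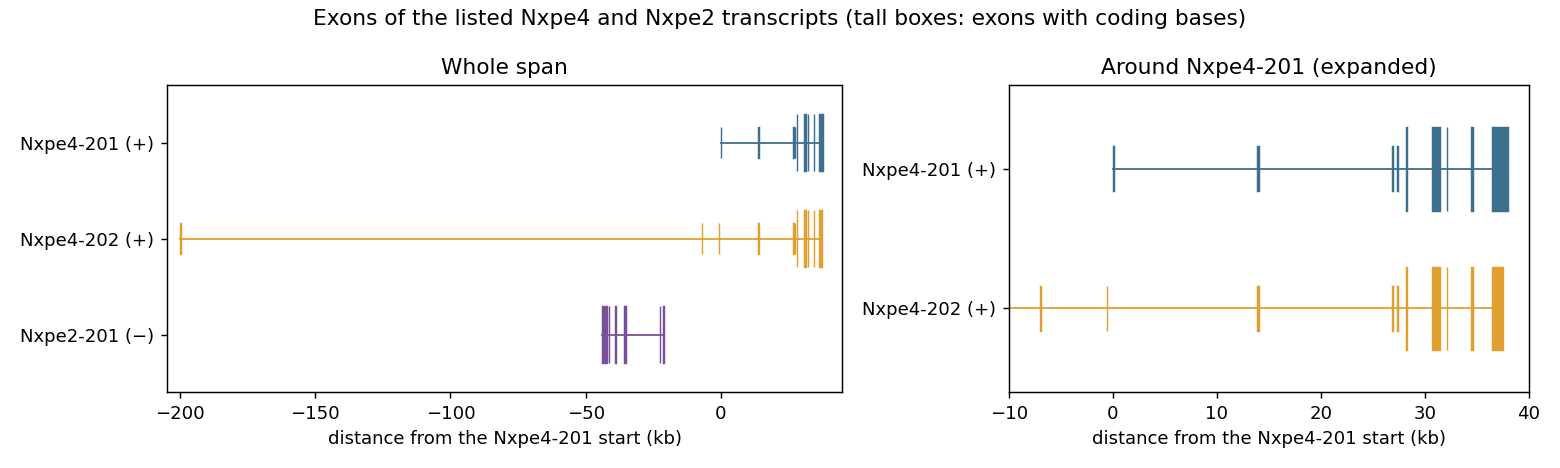
Exons of Nxpe4-201, Nxpe4-202 and Nxpe2-201, drawn to scale against the distance in kb from the Nxpe4-201 start, with the strand in brackets; tall boxes hold coding bases and short boxes hold none. Nxpe4-202 starts 199.9 kb upstream, Nxpe2 lies in its first intron, and the coding parts of the 2 Nxpe4 transcripts coincide.

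Because the KO levels of the 2 chromosome 9 members were so different, the 300 bases around their RefSeq starts (250 before and 50 after; RefSeq, GRCm38.p6) are shown for comparison. The Nxpe4 window is at chr9:48361791-48362090 (plus strand) and begins the transcript Nxpe4-201. The Nxpe2 window is at chr9:48340849-48341148 (minus strand). Capitals mark matches on either strand to the TATA box TATAAA, the CCAAT box, the E box CACGTG, the GC box GGGCGG or the CDX core TTTATNG.
Nxpe4: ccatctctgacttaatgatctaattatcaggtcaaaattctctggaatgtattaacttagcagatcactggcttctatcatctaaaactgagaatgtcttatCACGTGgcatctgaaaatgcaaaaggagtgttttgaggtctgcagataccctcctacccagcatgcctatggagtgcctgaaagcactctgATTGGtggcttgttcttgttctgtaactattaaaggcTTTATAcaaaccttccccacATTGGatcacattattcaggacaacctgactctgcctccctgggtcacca
Nxpe2: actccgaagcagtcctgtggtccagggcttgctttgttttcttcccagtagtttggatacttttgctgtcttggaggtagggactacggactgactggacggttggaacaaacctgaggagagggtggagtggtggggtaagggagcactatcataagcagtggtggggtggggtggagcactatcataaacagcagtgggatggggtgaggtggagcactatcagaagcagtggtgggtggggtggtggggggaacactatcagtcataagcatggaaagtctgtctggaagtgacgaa
The Nxpe4 window held TATAAA on the opposite strand (13.6% of 32851 windows of this length hold it on either strand), CCAAT at 2 places (37.4% hold it) and the palindrome CACGTG (7.15%). None of these letters, nor GGGCGG (35.7%) or TTTATNG (10.9%), occurred in the Nxpe2 window. The GC content was 42.3% in the Nxpe4 window and 53.3% in the Nxpe2 window, against a median of 52.7%. These matches describe the reference sequence only.

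Nxpe4 was at 47.2 TPM in WT-2, 35.0 in WT-5, 52.6 in WT-6, 23.0 in WT-7, 51.5 in WT-10 and 59.5 in WT-11, as the sum of its transcripts. In KO it was at 0.847 TPM in KO-1, 0.439 in KO-3, 0.867 in KO-4, 0.476 in KO-8 and 0.339 in KO-9. Every KO mouse lay below every WT mouse, and the lowest WT mouse, WT-7, stood far above the highest KO mouse, KO-4. The WT mean was 44.8 ± 13.4 TPM (SD, n = 6) and the KO mean 0.594 ± 0.246 TPM (SD, n = 5). The KO mean was thus 1.33% of the WT mean, a 75.4-fold difference in mean TPM. On the log2(TPM + 0.5) scale, which understates changes of low genes, the difference was -5.31 ± 0.23 (standard error of the limma fit with cage as a term).

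Among all 22243 genes of the table, the Nxpe4 mean was at the 93.6th percentile in WT and at the 47.4th in KO, and the Nxpe2 mean at the 92.2nd and the 86.8th. The relative spread of Nxpe4 between mice was 29.9% of the mean in WT and 41.4% in KO. Across the 10756 genes tested, the fit called 4 (0.0372%) at a false discovery rate (FDR) of 0.05. With single mice left out, 2 to 4 genes were called, and 2 without WT-2, WT-5, WT-11, KO-1, KO-3 or KO-4. Across all tested genes, 0.112% had every KO mouse below every WT mouse. These shares are background, and nothing is read from them about the members, because this contrast chose the family.

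Nxpe2, the neighbour on the opposite strand, was at 26.8 TPM in WT-2, 50.3 in WT-5, 37.6 in WT-6, 22.4 in WT-7, 32.5 in WT-10 and 48.7 in WT-11. In KO it was at 15.2 TPM in KO-1, 31.4 in KO-3, 21.1 in KO-4, 10.7 in KO-8 and 15.2 in KO-9. The groups overlapped through KO-3, which lay above WT-2 and WT-7, while the other 4 KO mice lay below all WT mice. The WT mean was 36.4 ± 11.4 TPM (SD, n = 6) and the KO mean 18.7 ± 7.99 TPM (SD, n = 5), so the KO mean was 51.5% of the WT mean. The log2 difference was -0.92 ± 0.27 (standard error of the limma fit).

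Nxpe3 and Nxpe5 were near the floor in both genotypes. Nxpe3 ranged from 0.0511 TPM in WT-5 through a WT median of 0.169 to 0.562 TPM in WT-2. In KO it ranged from 0.0963 TPM in KO-4 through a median of 0.117 to 0.751 TPM in KO-1. The Nxpe3 ranges overlapped, with a WT mean of 0.240 ± 0.192 TPM (SD, n = 6) and a KO mean of 0.251 ± 0.282 TPM (SD, n = 5). Nxpe5 was listed at 0 TPM in 7 of the 11 mice and was at 0.0794 TPM in WT-6, 0.143 in WT-7, 0.138 in WT-11 and 0.0531 in KO-3. All of that came from Nxpe5-201, as Nxpe5-202, which has the same coding exons, was listed at 0 in every mouse.

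**Figure D2:**
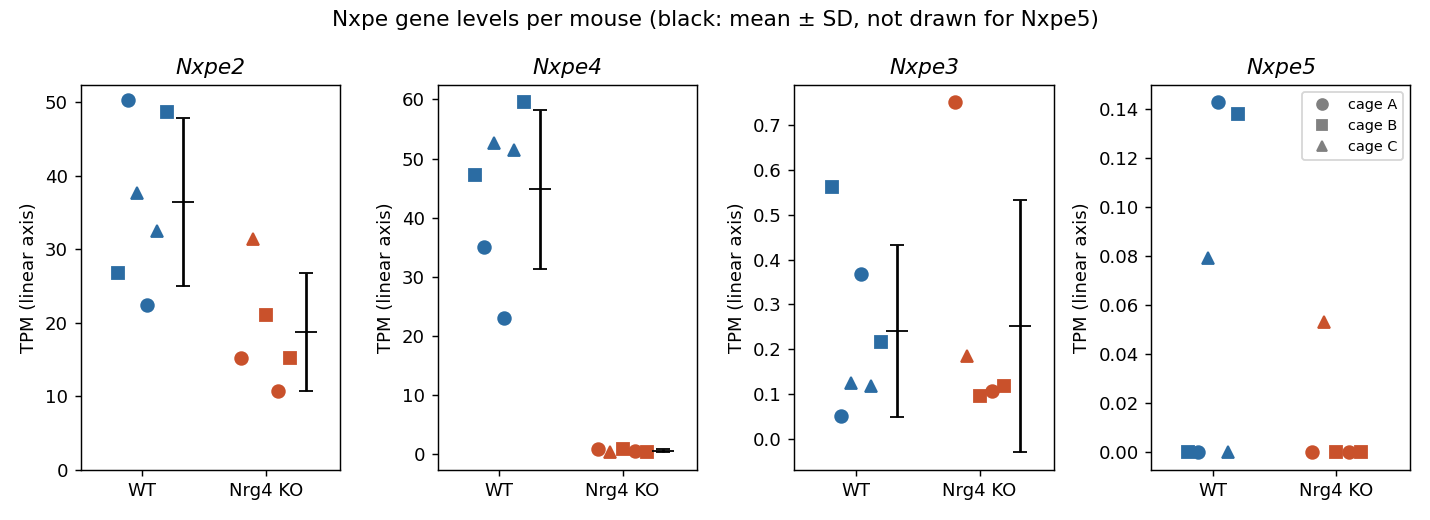
TPM of each Nxpe gene in every mouse (linear axes that differ between panels), WT in blue and Nrg4 KO in orange, with circles for cage A, squares for cage B and triangles for cage C; black bars are mean ± SD and are not drawn for Nxpe5, which was listed at 0 in 7 mice. Nxpe4 separates the genotypes completely, Nxpe2 overlaps through KO-3, and Nxpe3 and Nxpe5 stay below 1 TPM.

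The order of the levels within the family differed between the genotypes. In WT the order was Nxpe4, Nxpe2, Nxpe3 and Nxpe5, and the first 2 did not differ beyond their spread. Nxpe2 exceeded Nxpe4 in WT-5 alone of the 6 WT mice, and the Nxpe2 to Nxpe4 ratio of TPM ran from 0.568 to 1.44 in WT. In KO the order was Nxpe2, Nxpe4, Nxpe3 and Nxpe5, and the ratio ran from 18.0 to 71.5. The KO ranges of Nxpe4 and Nxpe3 overlapped, but Nxpe4 exceeded Nxpe3 within every KO mouse. The gap was narrowest in KO-1, at 0.847 TPM for Nxpe4 against 0.751 TPM for Nxpe3.

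The summed TPM of the 4 genes ran from 46.0 to 109 in WT (81.5 ± 20.7, SD, n = 6) and from 11.3 to 32.1 in KO (19.6 ± 7.98, SD, n = 5). Nxpe4 supplied 41.0% to 63.3% of that sum in WT mice and 1.37% to 5.04% in KO mice. Nxpe2 supplied 90.5% to 97.9% in KO mice. In bulk tissue, fewer cells of a type and less RNA per cell cannot be told apart, so these sums do not say which cells held the transcripts.

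At the transcript level, Nxpe4-201 was the abundant transcript in WT. Its TPM was 45.4 in WT-2, 32.3 in WT-5, 52.6 in WT-6, 22.2 in WT-7, 51.1 in WT-10 and 59.5 in WT-11. In KO it was 0.520 in KO-1, 0.0548 in KO-3, 0.867 in KO-4, 0.203 in KO-8 and 0.339 in KO-9. Every KO mouse again lay below every WT mouse (0.133% of 12067 transcripts tested showed this). Nxpe4-201 was above 0 in all 5 KO mice, at a mean of 0.397 ± 0.314 TPM (SD, n = 5) against 43.9 ± 14.0 TPM in WT (SD, n = 6), a 111-fold difference in mean TPM. In a limma fit across transcripts its log2 difference was -5.62 ± 0.26 (SE).

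Nxpe4-202, the transcript with the distant start, was low in both genotypes. Among WT mice it was at 1.75 TPM in WT-2, 2.67 in WT-5, 0.817 in WT-7 and 0.359 in WT-10, and was listed at 0 in WT-6 and WT-11. Among KO mice it was at 0.327 TPM in KO-1, 0.384 in KO-3 and 0.273 in KO-8, and was listed at 0 in KO-4 and KO-9. Its WT mean was 0.933 ± 1.08 TPM (SD, n = 6) and its KO mean 0.197 ± 0.184 TPM (SD, n = 5), a 4.74-fold difference in mean TPM, and the ranges of the genotypes overlapped. Nxpe4-202 did not reach 1 TPM in 5 mice and was not tested.

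The share of each transcript in Nxpe4 was also described per mouse. In WT, Nxpe4-201 made up 92.4% to 100% of Nxpe4 TPM. In KO its share ran from 12.5% in KO-3 to 100% in KO-4 and KO-9. WT-6 and WT-11 were also at 100%, so the shares of the genotypes overlapped. The KO shares divide Nxpe4 levels of at most 0.867 TPM, and a difference in share was not tested. Another annotated coding transcript of Nxpe4 is not among the rows analysed here.

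**Figure D3:**
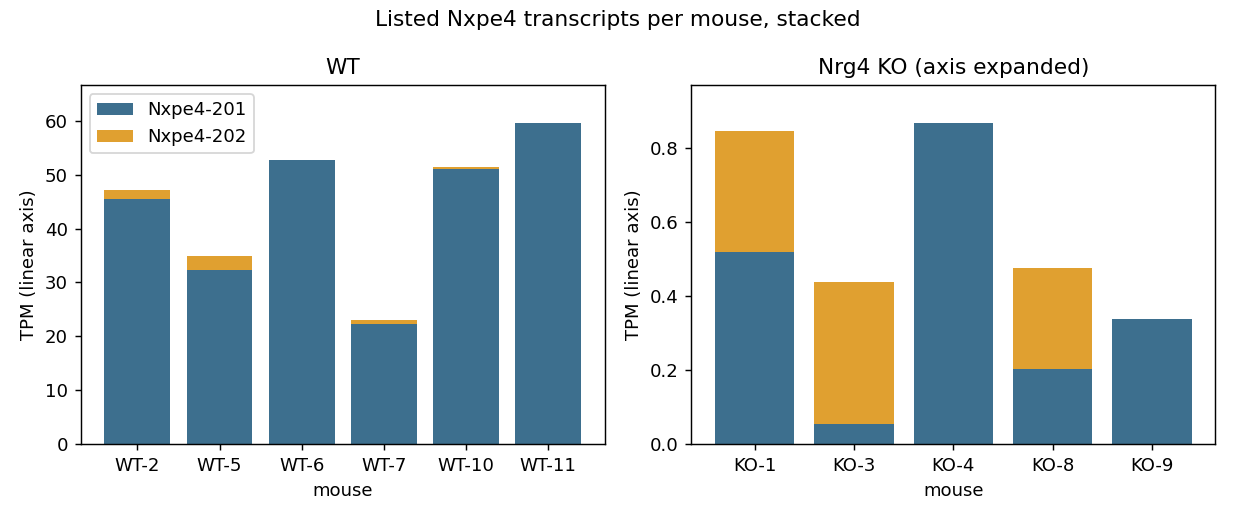
Stacked TPM of Nxpe4-201 (blue) and Nxpe4-202 (yellow) in each WT mouse (left) and each Nrg4 KO mouse (right), on linear axes that start at 0 and differ in scale. Nxpe4-201 makes up nearly all of the WT bars, and the KO bars stay below 0.9 TPM with shares that differ between mice.

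The authors' deposited table also shows how firmly reads were assigned to each transcript. The natural log of the normalized count estimate, averaged over mice, was 6.77 for Nxpe2-201, a geometric mean of 869 estimated counts per mouse, and 2.53 for Nxpe3, a geometric mean of 12.5. In the authors' deposited table the inferential variance of that log count, which rises when few or ambiguous reads support a transcript, was 0.00196 for Nxpe2-201, 0.545 for Nxpe4-201 and 1.51 for Nxpe4-202. The median over 14763 transcripts with a value in the authors' deposited table was 0.0303. Nxpe2-201 thus lay below that median and both Nxpe4 transcripts above it. These values cover WT and KO mice together, so low counts in KO and ambiguous reads cannot be told apart in them. No such value is given for Nxpe5.

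Cage was not used to choose the family, so the members were tested for differences between cages. In the limma F test on both cage terms, 0 of the 2 tested members passed at an FDR of 0.05, and 0 of 2 had an unadjusted p below 0.05. Across all 10756 genes this test called 0 (0%), with 12.1% at an unadjusted p below 0.05. In WT, with 2 mice per cage, the Nxpe2 mean was 36.4 TPM for cage A, 37.7 for cage B and 35.1 for cage C. In KO the mean was 13.0 TPM for the 2 mice of cage A and 18.1 for the 2 of cage B, and the single mouse of cage C was at 31.4. With genotype as a term, no cage difference in Nxpe2 was called (limma unadjusted p = 0.330, adjusted p = 0.685). For Nxpe4 the limma unadjusted p was 0.317 and the adjusted p 0.676. Its KO values lay near the 0.5 TPM added before taking logs, and only its WT mice met the filter. The cage test pools these KO values with 2 WT mice per cage, so it cannot decide whether Nxpe4 differs between cages. For Nxpe4 the WT mice of cage A, WT-5 and WT-7, were the lowest of the 6 WT mice.

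The differences between KO and WT within each cage are given as a description, since they split the contrast that chose the family. Nxpe4 differed by -4.66 (log2) within cage A, by -5.64 within cage B and by -5.81 within cage C. Its KO values lie near the 0.5 TPM added before taking logs, and its WT means were 29.0 TPM for cage A, 53.3 for cage B and 52.1 for cage C, so these differences mostly follow the WT level. Nxpe2 differed by -1.36 within cage A, by -0.99 within cage B and by -0.15 within cage C. The value for cage C rests on KO-3, which held the highest Nxpe2 level among KO mice. KO-3 also had the highest share of mitochondrially encoded genes, 42.9% of summed TPM against 19.0% to 31.4% in the other mice, and the lowest summed pan-epithelial markers, 7906 TPM. The part of these features in its Nxpe2 level was not tested.

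The tissue label was checked against markers of colon epithelium. Of 48 epithelial marker genes, 43 were tested, and 0 were called between the genotypes (limma; smallest adjusted p 1.00), with 1 at an unadjusted p below 0.05. By sign, 20 were lower and 23 higher in KO. Their median log2 difference was 0.0092, beside -0.011 over all genes tested. The 10 pan-epithelial markers, such as the adhesion molecule Epcam (1012 ± 90.4 TPM in WT, SD, n = 6; 979 ± 123 TPM in KO, SD, n = 5), summed to 9070 to 11543 TPM in WT mice and 7906 to 12652 TPM in KO mice. Of the 10 surface colonocyte markers, 9 were tested, and the sodium-proton exchanger gene Slc9a3 was listed at 0 in all WT mice. Surface colonocyte markers summed to 3983 to 7903 TPM in WT and 4497 to 6418 TPM in KO, and goblet cell markers to 5754 to 11036 TPM and 4854 to 12412 TPM. Of the markers of crypt base and dividing cells, tuft cells and enteroendocrine cells, 7 of 7, 1 of 5 and 6 of 6 were tested. The tuft cell gene Avil, the 1 at an unadjusted p below 0.05, had a log2 difference of 0.48 ± 0.20. The low Nxpe4 level in KO mice was thus not accompanied by separate ranges of these summed markers.

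Markers of other tissues and cell types were compared in the same way. The 6 squamous epithelial markers summed to at most 0.971 TPM in any mouse, and 0 of them reached the filter. Small intestinal markers summed to 45.8 to 87.2 TPM in WT and 32.7 to 53.7 TPM in KO. Fabp6, an ileal bile acid binding protein gene of that list, had a log2 difference of -0.65 ± 0.25 (limma FDR 1.00). Immune markers summed to 24.8 to 141 TPM in WT and 36.8 to 167 TPM in KO, and smooth muscle markers to 2754 to 5136 TPM and 2565 to 4574 TPM. The 3 endothelial markers were all higher in KO by sign, while 53.2% of all genes tested were lower by sign. Limma called 0 of these 3 markers (0.0093% of all genes were called higher). They summed to 1.23 to 4.57 TPM in WT and 3.44 to 6.16 TPM in KO. One of them, Emcn, which encodes endomucin, ran from 0.766 to 1.81 TPM in WT and from 1.86 to 3.06 TPM in KO, so every KO mouse lay above every WT mouse (0.112% of genes tested showed this). Its log2 difference was 0.73 ± 0.17 (limma unadjusted p = 0.00177, FDR 1.00). The part of this shift in the Nxpe values was not tested.

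The genes that flank the family on chromosome 9 did not share the low KO values. Within 1 Mb of Nxpe4, 13 other genes were in the table and 6 were tested, all on the 3′ side of Nxpe4. All 6 were higher in KO by sign, from 0.04 to 0.26 on the log2 scale with a median of 0.16 (53.2% of all genes were lower by sign). Of the 6, limma called 0 (0.0372% of all genes were called), with 1 at an unadjusted p below 0.05 (3.10% of all genes). That gene and the nearest, Rexo2, which encodes an oligoribonuclease, lies at 48468512 to 48480623, 68.5 kb from Nxpe4. It averaged 48.3 ± 5.66 TPM (SD, n = 6) in WT against 57.7 ± 4.99 TPM (SD, n = 5) in KO, a log2 difference of 0.25 ± 0.08 (limma FDR 1.00). On the other side, the nearest gene in the table, Cadm1, did not reach the filter.

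**Figure D4:**
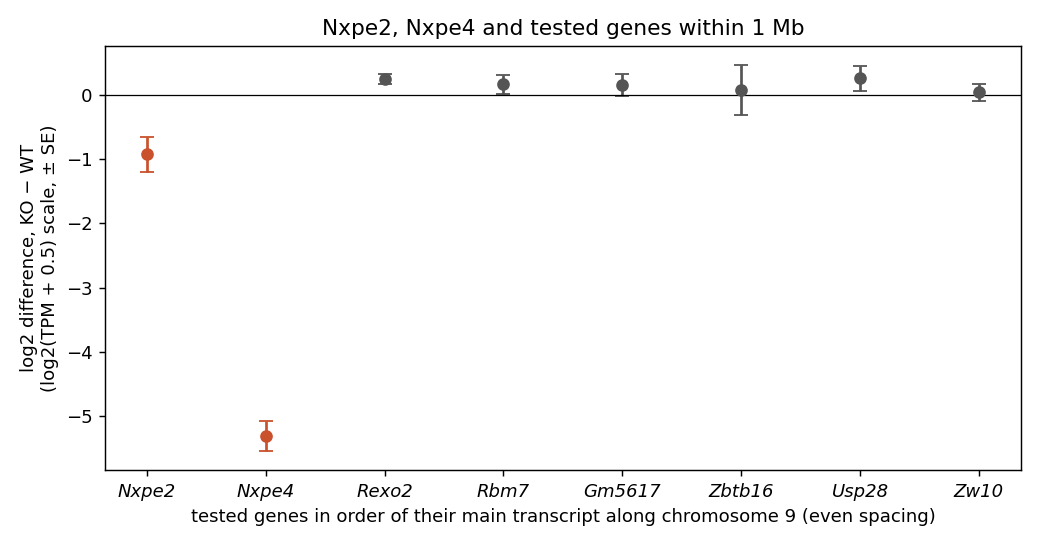
Log2 difference between KO and WT (log2(TPM + 0.5) scale, with the standard error of the limma fit) for Nxpe2 and Nxpe4 in orange and the 6 tested genes within 1 Mb in grey, evenly spaced in the order of their main transcripts. Both Nxpe genes lie below 0, Nxpe4 at -5.31, while the 6 neighbours lie between 0.04 and 0.26.

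Genes of sialic acid handling were compared next, since O-acetylation of sialic acid is the reaction linked to the family. The list of 29 symbols matched 30 gene identifiers (St6galnac2 has 2), of which 19 were tested. It was drawn up with earlier results of these data known, so the counts and the gene called are a description. In KO, limma called 1 lower (0.0279% of all genes were) and 0 higher (0.0093%), and the median log2 difference was 0.0024, beside -0.011 over all genes. By sign, 9 were lower (53.2% of all genes were lower by sign) and 10 higher.

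The gene called was St3gal4, a sialyltransferase that caps galactose with sialic acid, which averaged 177 ± 60.7 TPM (SD, n = 6) in WT against 1.19 ± 0.271 TPM (SD, n = 5) in KO (log2 difference -6.61 ± 0.22, limma FDR 4.33e-07). Cmas, which activates sialic acid to its CMP form, averaged 217 ± 24.6 TPM (SD, n = 6) in WT against 179 ± 19.4 TPM (SD, n = 5) in KO, and the log2 difference of -0.26 ± 0.10 did not pass (limma FDR 1.00). St6galnac4 and St3gal2, other sialyltransferase genes, had log2 differences of 0.25 ± 0.16 and 0.24 ± 0.19, with limma FDR of 1.00 for both. Gne, which encodes the enzyme that starts sialic acid synthesis, did not reach the filter. It ran from 0 to 1.90 TPM in WT and was at most 3.99e-08 TPM in KO, so the ranges overlapped.

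**Figure D5:**
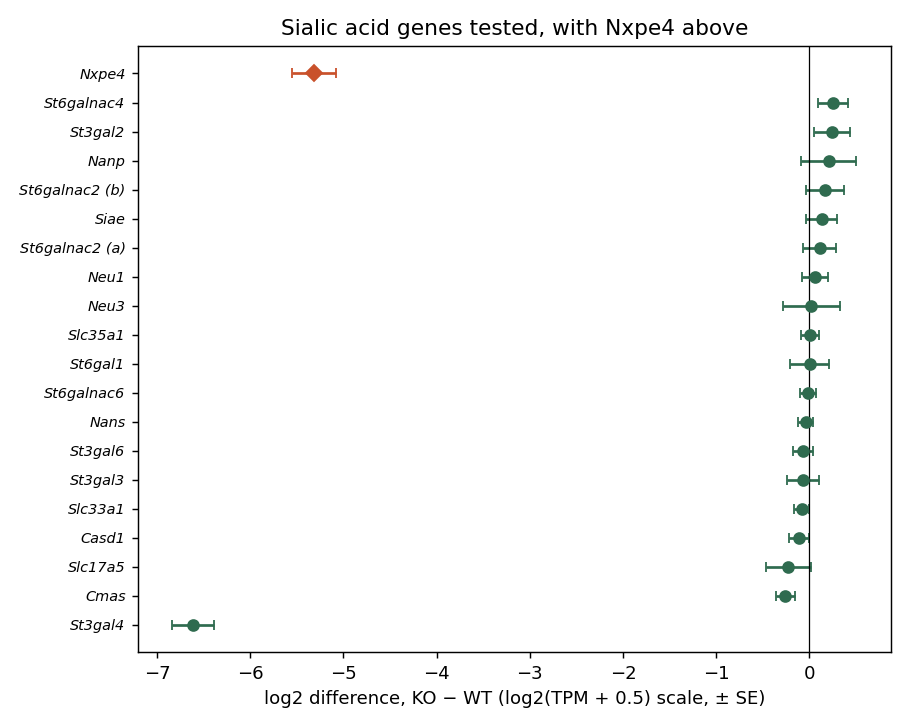
Log2 difference between KO and WT (log2(TPM + 0.5) scale, with the standard error of the limma fit) for the 19 tested gene identifiers of sialic acid handling in green, ordered by value, with Nxpe4 in orange above; (a) and (b) are the 2 identifiers of St6galnac2. St3gal4 at -6.61 stands apart from the other 18, which lie between -0.26 and 0.25.

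The structural relatives of the family were also described. Of a list of 10 genes related to the neurexophilin or PC-esterase region, 2 reached the filter, and limma called 0 of them, with 0 at an unadjusted p below 0.05. Casd1, the sialic acid O-acetyltransferase, averaged 32.4 ± 2.82 TPM (SD, n = 6) in WT against 29.95 ± 5.78 TPM (SD, n = 5) in KO, with a log2 difference of -0.11 ± 0.11 (limma FDR 1.00). In WT its mean lay below the mean of Nxpe2 and of Nxpe4, and in KO above both. Siae, the esterase that removes these O-acetyl groups, was at 2.58 ± 0.480 TPM and 2.91 ± 0.753 TPM.

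The PC-esterase relative Pced1a averaged 1.47 ± 0.523 TPM (SD, n = 6) in WT against 1.92 ± 0.734 TPM (SD, n = 5) in KO, and Pced1b at 0.825 ± 0.369 and 1.16 ± 1.21 TPM. The secreted neurexophilins were low, with Nxph3 averaging 0.846 ± 0.377 TPM (WT) and 0.955 ± 0.122 TPM (KO) and Nxph4 at 0.517 ± 0.225 and 0.295 ± 0.201 TPM. Nxph1 stood at 0.140 and 0.130 TPM and Nxph2 at 0.0872 and 0.0756 TPM as WT and KO means. Among the relatives named here, Casd1 alone was at a level near that of Nxpe2 and Nxpe4 in WT.

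For each tested member, the genes with the most similar levels across mice were listed by Pearson correlation of log2(TPM + 0.5), as a description. For Nxpe4 over the 11 mice these were St3gal4 (r = 0.990), Hspa8 (0.952) and Galnt2 (0.882), values that carry the separation of the genotypes. With each genotype's mean subtracted, they were Tsc22d3 (0.863), Slc25a38 (0.853) and Klb (0.847). For Nxpe2 they were Mpzl3 (0.881), Fabp6 (0.859) and Synj1 (0.858) over the 11 mice, and Armcx3 (0.948), Klhl28 (0.890) and Crebbp (0.883) with the means subtracted. The correlation between Nxpe2 and Nxpe4 was 0.307 with the genotype means subtracted. These are the highest values among 10756 genes over 11 mice that share libraries and normalization, and they are given with no test.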

How the data were processed

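Reads from CASAVA were handled with kallisto and sleuth on the mm10 build, per the submitters' processing notes, without versions. Libraries were stranded, per the labels' protocols, with single-end reads of 75 nt. The authors deposited TPM for principal (APPRIS) transcripts only, with their log2 ratio of KO over WT and a natural log of the count estimate averaged over mice. Of 29213 rows, 405 repeated a transcript and were dropped. Summed TPM per mouse was 558446 to 770986. TPM keeps no depth, so no counting intervals are given.

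Transcript TPM were summed per gene. The 10756 genes that reached 1 TPM in 5 or more mice were fitted with limma 3.58.1 (R 4.3.3; trended variance) on log2(TPM + 0.5). Terms were genotype and cage, and p-values were adjusted over all genes by Benjamini-Hochberg. Tested on simulated data with the same 10756 genes, the genotype fit recovered 71% of 100 genes changed 2-fold and 93% of 100 changed 4-fold. The cage test recovered 97% of 200 changed 8-fold, and smaller cage differences were not simulated. Both sets of 100 were changed in the same run, while in the data the genotype fit called 4 genes. With so few, the Benjamini-Hochberg cut-off is stricter, so the simulated recovery does not carry over to the data. A planned test of genotype by cage interaction is not reported, since it splits the contrast that chose the family.

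Named genes are the members, up to 4 genes of the pathway and marker lists with the smallest p, the relatives measured (a gene that the rule names is left out), the nearest neighbours and the 3 most correlated genes per member. Some genes outside that rule, such as Epcam, Slc9a3, Gne and Siae, were named after their values were seen. The members and lists were chosen with earlier results of these data known. Gene positions came from GENCODE M21, in which 22241 of 22243 gene identifiers and all 6 member transcripts were found (Nxpe3 under a later version), and promoters from RefSeq matched all 4 members by symbol.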

Additional observations from a re-analysis of the deposited data

Results flagged for a closer look

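Of 8 sets of member values (4 genes in 2 genotypes), 2 had a mouse far from the others. Nxpe3 was at 0.751 TPM in KO-1, and the next KO mouse was at 0.185 TPM. Nxpe5 was at 0.0531 TPM in KO-3 and listed at 0 in the other 4 KO mice. With all the others at 0, any single value above 0 would stand apart in this way, so the rate of about 1 in 20 that chance gives applies to the Nxpe3 set and not to the Nxpe5 set. Both values are below 1 TPM.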

How the results depend on the processing

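The WT and KO mice share no replicate number, and the cages they share are a term of the fit. The Nxpe4 difference of -5.31 kept its direction under all 21 alternatives. It was -6.00 with a pseudocount of 0.1 and -4.77 with a pseudocount of 1, -4.66 within cage A and -5.81 within cage C, and -5.49 to -5.15 with single mice left out. The count of genes called between genotypes, 4, was 2 with no filter on low values and 2 to 4 with single mice left out, the 2 arising without WT-2, WT-5, WT-11, KO-1, KO-3 or KO-4. The counts of members called by cage (0), of sialic acid genes called (1) and of epithelial markers called (0) did not change under any alternative run. Nxpe2, added after seeing the data, was negative under all 20 alternatives, from -1.36 to -0.15, the latter within cage C. Nxpe3 and Nxpe5 are limited by their low levels.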
